A study of Mus musculus with 29 samples.

Results

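The gene segments that encode the T cell receptor were described in lung DNA as windows of CpG sites named for a segment of the alpha (Tra), delta (Trd), beta (Trb) or gamma (Trg) locus. Members were all windows of the table whose gene name begins with the letters of one of these loci followed by v, d, j or c, for a variable (V), diversity (D), joining (J) or constant (C) segment. Of 260686 windows, 136 matched. The 4 windows of Tradd, an adaptor gene of tumour necrosis factor signalling on chromosome 8, matched by spelling only and are given apart. The other 132 windows comprised 101 of Tra (84 V, 16 J and 1 C) and 2 of Trd on chromosome 14, 22 of Trb (18 V, 1 D, 2 J and 1 C) on chromosome 6, and 7 of Trg (3 V, 2 J and 2 C) on chromosome 13. In total 130 were tested. The remaining 2, Trav3d-2 and Trav7n-5, had a value in at most 3 libraries of some groups and in as few as 1 library of PM-OVA or PM, and were not tested.

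The 29 libraries were made from lung tissue (labelled RML) of 13-week-old female Balb/c offspring by enzymatic methyl-sequencing, and each value is the percent of methylated CpG signal (%DNAm) in 1 window of 1 library. Sham (n = 7) were unchallenged offspring of dams given saline, and PM (n = 7) were unchallenged offspring of dams given fine particulate matter (PM2.5) before mating and through gestation and lactation. Sham-OVA (n = 7) and PM-OVA (n = 8) were the corresponding offspring sensitised and challenged with ovalbumin (OVA), an egg protein that induces allergic airways disease, whereas unchallenged offspring inhaled saline. The dam of each library is not given in the labels, so libraries of a group may include littermates. The table holds no read counts, so the depth of each value is unknown here. The mean over all tested windows lay between 67.8% and 70.2% in every library. Against its description as female, the library Sham replicate 1 had a value in 1224 of 1230 windows of the Y chromosome, where the other libraries had 29 to 46. It was kept in its group, and counts without it are given below.

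T cells assemble their receptor genes by V(D)J recombination, in which the RAG1 and RAG2 recombinase cuts at recombination signal sequences beside a V, D or J segment and the chosen segments are joined. Where the joining is by deletion, the intervening DNA is lost from that T cell, whereas all other lung cells keep the germline array. Alpha and beta chains form the receptor of conventional T cells and gamma and delta chains that of gamma-delta T cells, and the Trd locus lies inside Tra. Because the lung is a mixture of cells, the proportion of each cell type and the methylation within each cell type cannot be told apart in these values, and neither can methylation and the loss of germline copies.

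The sequences below are from the GRCm38 reference, plus strand, 5' to 3'. They show what was measured at the windows on which the results turn. First come the 200 bases with the most CpG sites in each of 5 windows, namely Trbj2-1 and Traj32, which rose, and Trgj1, Trbv23 and Trav13d-4, which had the largest falls of Trg, Trb and Tra in Sham, with each CpG in capitals. The Trbj2-1 stretch held 13 CpG sites and spans the Trbj2-6 segment, and the other 4 held 5 or 6.
Trbj2-1 window, chr6:41543515-41543714: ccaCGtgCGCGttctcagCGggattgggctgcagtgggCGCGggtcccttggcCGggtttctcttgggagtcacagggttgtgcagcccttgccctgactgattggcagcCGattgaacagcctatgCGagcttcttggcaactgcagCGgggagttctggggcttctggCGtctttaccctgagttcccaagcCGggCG
Traj32 window, chr14:54187098-54187297: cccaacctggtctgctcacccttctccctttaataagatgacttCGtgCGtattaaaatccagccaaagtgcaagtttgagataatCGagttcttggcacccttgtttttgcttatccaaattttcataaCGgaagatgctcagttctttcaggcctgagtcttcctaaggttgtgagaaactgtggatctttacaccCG
Trgj1 window, chr13:19213574-19213773: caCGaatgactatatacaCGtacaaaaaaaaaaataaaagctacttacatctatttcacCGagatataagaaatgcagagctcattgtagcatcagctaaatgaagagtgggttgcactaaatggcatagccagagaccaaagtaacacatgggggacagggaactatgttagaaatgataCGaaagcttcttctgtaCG
Trbv23 window, chr6:41218446-41218645: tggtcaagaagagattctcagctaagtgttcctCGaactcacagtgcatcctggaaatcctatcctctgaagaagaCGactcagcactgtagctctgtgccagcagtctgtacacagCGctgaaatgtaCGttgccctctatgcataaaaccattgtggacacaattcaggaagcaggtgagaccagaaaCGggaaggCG
Trav13d-4 window, chr14:53073010-53073209: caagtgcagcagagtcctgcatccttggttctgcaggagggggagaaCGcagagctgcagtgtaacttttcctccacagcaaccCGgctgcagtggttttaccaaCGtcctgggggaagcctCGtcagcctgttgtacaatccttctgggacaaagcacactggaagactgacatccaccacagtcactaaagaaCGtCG

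The second set are the 28 bases directly before 5 of the beta joining segments, where the recombination signal lies. The nonamer (9 bases) and the heptamer (7 bases) are in capitals, and the 12 bases between them are the spacer.
Trbj2-2, chr6:41542929-41542956: GGTTTGTGCcagcatttccagGACTGTG
Trbj2-3, chr6:41543195-41543222: AGTTTTTGTcctgagcctggaGGCTGTG
Trbj2-4, chr6:41543334-41543361: AGTTTTTGTcctgtaccaagaGGCTGTG
Trbj2-5, chr6:41543425-41543452: AGTTTTTGTgttgggttctggGGCTGTG
Trbj2-7, chr6:41543782-41543809: GGTTTGTGTgtggggttgagcCTCTGTG
The 28 bases before all 6 J segments whose signal lay within the Trbj2-1 window held 0 CpG sites, although the window is the densest in CpG of the joining windows. Over the 78 J and D segments whose 28 bases lay in a member window, 12 held a CpG (15.4%), and 4 of them within the heptamer or nonamer. Of all 28-base stretches in these windows, on both strands, 14.9% held a CpG. The exact heptamer CACTGTG ended 19 of the 78 (24.4%) and 0.0160% of all stretches.

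No T cell receptor window was a differentially methylated region (DMR) after OVA, which is defined as an adjusted p under 0.05 with a difference of at least 10 percentage points. In Sham offspring 0 of 130 windows were called, where 0.775% of all tested windows were, and in PM offspring 0 of 130, where 0.584% were. The tool was limma's moderated test, and 40 and 53 of the 130 windows had an unadjusted p under 0.05, where 45% and 51.4% of all windows had one. Smaller differences passed the adjusted p alone. After OVA in Sham, 31 windows fell and 3 rose, and after OVA in PM, 41 fell and 4 rose. The falling windows were 23.8% and 31.5% of those tested, beside a background of 22.3% and 34.8% of all windows, so the share of falls was near that of the genome. The rising windows were 2.31% and 3.08%, beside 13.3% and 9.26%. With each library centred, 26 fell and 6 rose in Sham, and 22 fell and 4 rose in PM, where 18.4% of all windows fell and 18.5% rose in Sham and 20.4% fell and 21.8% rose in PM.

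The median difference over the 130 windows was -1.13 points for OVA in Sham, beside -0.41 over all tested windows, and -1.42 for OVA in PM, beside -1.03. With each library centred it was -0.74 in Sham and -0.44 in PM, and without Sham-OVA replicate 5 it was -0.74 in Sham. In Sham 92 windows were lower in OVA libraries and in PM 109 were, counting differences of any size (70.8% and 83.8%, beside 59.1% and 69.2% of all windows). At least 5 points separated the groups in 9 called windows in Sham (2 rose, 7 fell; 6.92%, beside 5.96% of all windows) and in 12 in PM (2 rose, 10 fell; 9.23%, beside 5.89%). Ranges of Sham and Sham-OVA libraries did not overlap in 7 windows, all lower with OVA (5.38%, beside 5.43% of all windows), and in 0 that were higher (beside 3.15%). Between PM and PM-OVA they did not overlap in 10 lower windows (7.69%, beside 10.3%) and in 1 higher window (0.769%, beside 1.65%).

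Both OVA comparisons used different animals and gave similar differences where the sequence was unique. Of 34 windows past the adjusted p in Sham and 45 in PM, 28 were past it in both, which is 82.4% of the first and 62.2% of the second, and all 28 had the same sign. Across the 74 windows in which under 10% of the 100-base words occur again on chromosomes 6, 8, 13 and 14, Pearson's r between the differences was 0.85 (Spearman's rho 0.71), and 58 had the same sign. Across all 130 windows r was 0.65 (rho 0.55) and 99 had the same sign. Over all tested windows 35.6% passed the adjusted p in Sham and 44.1% in PM, and 59.1% and 69.2% were lower in OVA libraries. The agreement of both comparisons over all windows is not given here, so it cannot be called particular to these loci. Windows share libraries and neighbours and are not independent replicates.

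**Figure D1:**
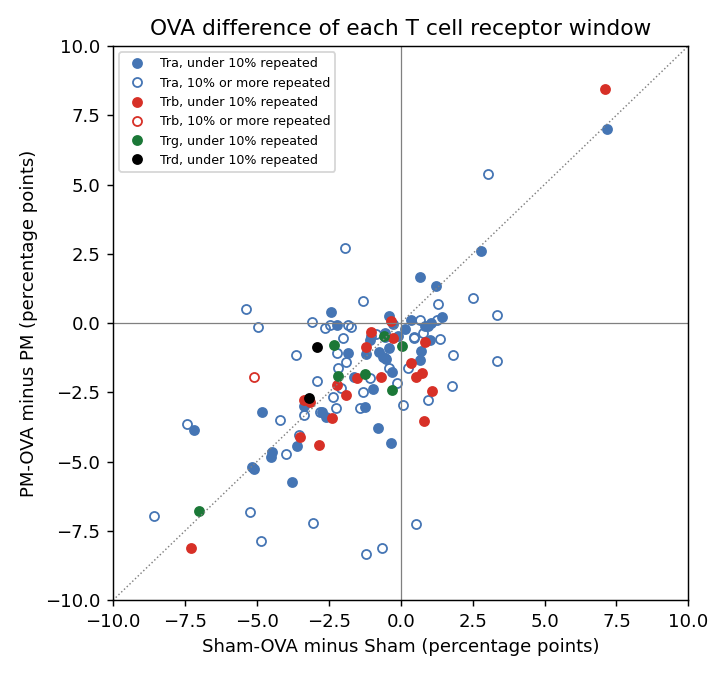
Each point is 1 of 130 T cell receptor windows. The horizontal axis is the difference of group means Sham-OVA minus Sham and the vertical axis PM-OVA minus PM, both in percentage points. Colours mark the locus, open circles mark windows with 10% or more repeated sequence, and the dotted line marks equal differences. Traj32 and Trbj2-1 stand alone at the upper right, above 6 points on both axes.

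In the alpha joining array 8 of the 16 J windows fell in each comparison, 1 rose in Sham (Traj32) and 2 rose in PM (Traj32 and Traj37). The falls are 50% of the J windows, beside 22.3% and 34.8% of all windows, and the rises 6.25% and 12.5%, beside 13.3% and 9.26%. The 16 J windows and the Trac window, the constant gene of the alpha chain, follow each other without overlap from chr14:54149841 to 54224269 and hold almost no repeated sequence. The array is described in 3 stretches, whose limits were set after the values were seen and which were not tested against each other. The 7 windows from Traj61 to Traj40, farthest from Trac, were all lower in OVA libraries, and 6 of them passed the test in Sham and 6 in PM. With centred libraries Traj46 did not pass it in PM (-2.21 points, adjusted p = 0.0689). Their median difference was -4.48 points in Sham and -4.45 in PM. In the 6 windows from Traj37 to Traj14 the median was 0.86 and 0.72, with 1 window past the test upwards in Sham and 2 in PM, and Traj18 downwards in each. In the 4 windows from Traj9 to Trac it was -2.49 and -3.15, with Traj9 and Trac falling in each and Traj5 and Traj2, which lie between them, not passing the test.

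Traj52, which includes Traj52, Traj51 and Traj50, had the highest methylation of all Tra windows. Sham libraries ran from 83.4% through a median of 84.6% to 85.7%, and Sham-OVA libraries from 75.4% through 79.7% to 81.2%. PM libraries ran from 83.3% (median 85.3%) to 86.2%, and PM-OVA from 76.2% (median 79.8%) to 83.3%. The Sham groups did not overlap, and of the PM groups only the edges met. The difference was -5.11 points in Sham (log2 ratio -0.48 ± 0.08 SE, adjusted p = 2.98e-05) and -5.26 in PM (-0.49 ± 0.08, adjusted p = 8.50e-06).

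Traj61 lay at 79.3% ± 1.63 (SD, n = 7) in Sham and 74.7% ± 1.63 (n = 7) in Sham-OVA, and at 79.1% ± 1.20 (n = 7) in PM and 74.3% ± 1.65 (n = 8) in PM-OVA. Its difference of -4.51 and -4.85 points passed the test in both (adjusted p = 0.000104 and 2.36e-05, limma). The windows Traj59, Traj49, Traj46 and Traj40 fell, with differences of -4.83 to -2.73 points in Sham and of -4.66 to -3.19 points in PM. Traj55, which lies between Traj59 and Traj52, went from 81.7% ± 2.07 to 81.1% ± 2.06 in Sham (n = 7 each), a difference of -0.56 points that did not pass the test (adjusted p = 0.675, limma). In PM it differed by -1.26 points (adjusted p = 0.271).

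Traj32, with the segments Traj32 to Traj29, went the other way. Sham libraries ran from 48.5% (median 51.6%) to 62.3%, and Sham-OVA from 56.5% (median 60.3%) to 63.7%. PM libraries ran from 49.9% (median 53.5%) to 55.8%, and PM-OVA from 53.6% (median 61.1%) to 64.9%. In Sham 1 library, replicate 4, lay among the OVA libraries, while the other 6 lay below the lowest of them, and in PM-OVA replicate 3 lay within the PM range. Methylation rose by 7.15 points in Sham (log2 ratio 0.41 ± 0.10, adjusted p = 0.00137) and by 6.99 in PM (0.41 ± 0.09, adjusted p = 0.000883). Its neighbours Traj37 and Traj28 differed by 0.68 and 0.34 points in Sham (neither past the test), and by 1.66 (adjusted p = 0.0464) and 0.12 in PM.

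Nearer the constant gene, the window of Traj18, the joining segment of invariant natural killer T cells, and of Traj17, Traj16 and Traj15 changed by -3.36 points in Sham and -3.01 in PM (adjusted p = 0.00475 and 0.00563). Traj9 ran from 72.5% (median 74.0%) to 75.8% in Sham and from 68.3% (median 70.0%) to 72.0% in Sham-OVA, and from 74.5% (median 76.3%) to 77.1% in PM and from 66.6% (median 70.4%) to 72.9% in PM-OVA. Neither pair of groups overlapped. The difference was -3.79 points in Sham (adjusted p = 0.000476) and -5.74 in PM (adjusted p = 8.76e-07). Trac ran from 51.8% (median 57.3%) to 60.6% in Sham and from 48.0% (median 51.3%) to 54.6% in Sham-OVA, and the groups overlapped. In PM it ran from 56.2% (median 56.6%) to 61.7%, and in PM-OVA from 48.5% (median 52.5%) to 55.2%, without overlap. The difference was -5.17 points (adjusted p = 0.00215) and -5.18 points (adjusted p = 0.00116). Over the 17 windows the differences in both comparisons had the same sign in 17, with r = 0.97 (rho 0.91).

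**Figure D2:**
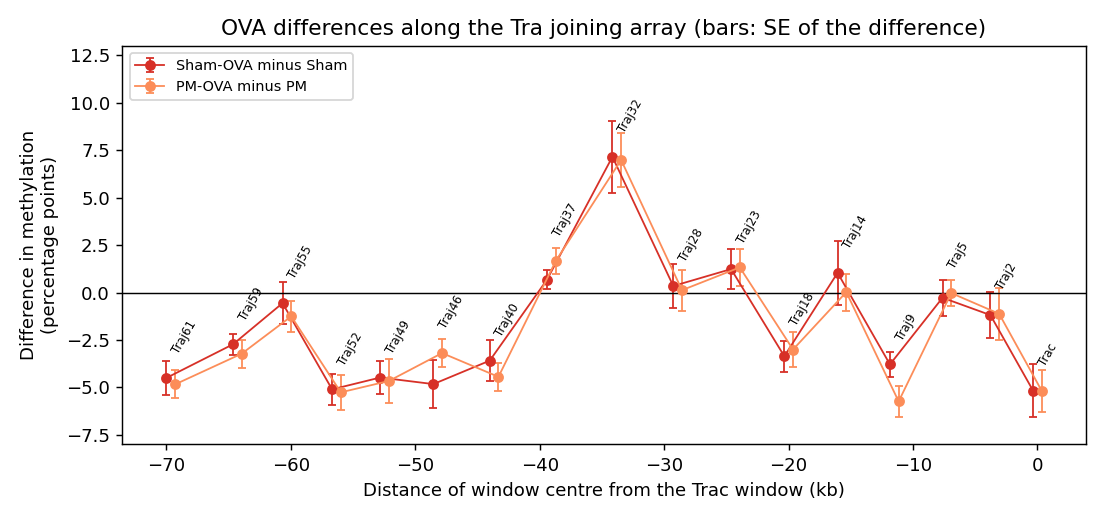
The vertical axis is the difference in methylation after OVA in percentage points, with bars of 1 SE of the difference. The horizontal axis is the distance of each window's centre from the Trac window in kb. Red is Sham-OVA minus Sham and orange PM-OVA minus PM. The 7 windows from Traj61 to Traj40 lie below 0 in both, Traj32 stands highest near 7 points, and Trac lies near -5 points.

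The beta locus contained the other clear rise. The Trbj2-1 window spans the second beta joining cluster, from within Trbj2-1 to Trbj2-7. Its 49 CpG sites lie within 2509 bases (19.5 per kb, beside a median of 6.25 per kb over member windows). It was also the least methylated T cell receptor window. Sham libraries ran from 26.6% (median 29.1%) to 34.2%, and Sham-OVA from 33.1% (median 35.8%) to 43.3%, and these groups overlapped narrowly. PM libraries ran from 27.7% (median 30.8%) to 34.0%, and PM-OVA from 36.0% (median 39.0%) to 45.3%, without overlap. The rise was 7.11 points in Sham (log2 ratio 0.45 ± 0.10, adjusted p = 0.000597) and 8.43 in PM (0.52 ± 0.09, adjusted p = 5.65e-05). The windows beside it moved the other way or less. Trbj1-5, which includes the rest of the first joining cluster, the first constant gene Trbc1, Trbd2 and the start of Trbj2-1, changed by -3.38 and -2.76 points (adjusted p = 0.00607 and 0.0159). Trbc2, the second beta constant gene, differed by -1.52 and -1.97 points and did not pass the test (adjusted p = 0.206 and 0.0721). Trbd1, with Trbj1-1 to Trbj1-4, changed by -3.49 and -4.10 points (adjusted p = 0.0186 and 0.00332).

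Among the 18 Trb V windows, 6 fell and 0 rose in Sham, and 9 fell and 0 rose in PM. The falls are 33.3% and 50% of these windows, beside 22.3% and 34.8% of all windows. Trbv23, a window of Trbv23, Trbv24 and Trbv25, fell most. Sham libraries ran from 70.1% (median 72.7%) to 75.2% and Sham-OVA from 61.5% (median 66.0%) to 66.7%, and PM from 69.8% (median 70.7%) to 74.2% and PM-OVA from 57.8% (median 63.8%) to 66.0%. Neither pair overlapped. The difference was -7.30 points in Sham (log2 ratio -0.48 ± 0.07, adjusted p = 1.31e-05) and -8.11 in PM (-0.52 ± 0.07, adjusted p = 2.01e-06). The first Trbv21 window was the most methylated of all members at 89.1% ± 2.25 (n = 7) in Sham. In Sham-OVA it was 84.1% ± 2.19 (n = 7; adjusted p = 0.000963, limma), whereas PM and PM-OVA, at 87.7% ± 1.66 (n = 7) and 85.8% ± 2.83 (n = 8), did not differ beyond their spread (adjusted p = 0.190, limma).

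Of the 7 Trg windows, 3 fell in each comparison (42.9%, beside 22.3% and 34.8% of all windows) and 0 rose. Trgj1 contains the joining segment Trgj1 and the constant gene Tcrg-C1 (chr13:19210255-19220792). Sham libraries ran from 73.4% (median 76.6%) to 78.8%, and Sham-OVA from 66.5% (median 69.4%) to 71.2%. PM libraries ran from 74.2% (median 76.2%) to 77.6%, and PM-OVA from 67.1% (median 69.4%) to 71.2%. Neither pair overlapped, and the difference was -7.01 points in Sham (log2 ratio -0.50 ± 0.06, adjusted p = 5.36e-07) and -6.78 in PM (-0.48 ± 0.06, adjusted p = 3.55e-07). The matching window of the third cluster, Trgj3 with Tcrg-C3, differed by -0.29 points in Sham (adjusted p = 0.796) and fell by 2.41 in PM (adjusted p = 0.00646). The windows Trgv1 and Trgv2 differed by 0.04 and -0.58 points in Sham, and neither passed the test. Trgc2 changed by -2.18 and -1.90 points (adjusted p = 0.0202 and 0.0316). Trgc4, the most methylated Trg window at 85.9% ± 0.860 (n = 7) in Sham, fell by 2.31 points there (adjusted p = 0.00985, limma) and differed by -0.80 in PM (adjusted p = 0.334).

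Both Trd windows fell in Sham and neither passed the test in PM, where Trdc lay near the threshold. Trdc, the delta constant gene, went from 70.0% ± 2.36 to 66.8% ± 2.62 in Sham (n = 7 each; adjusted p = 0.0335, limma) and from 69.7% ± 1.93 (n = 7) to 67.0% ± 2.02 (n = 8) in PM (adjusted p = 0.0532, limma). Trdv3 went from 76.3% ± 1.43 to 73.4% ± 2.54 in Sham (n = 7 each; adjusted p = 0.0367, limma), and differed by -0.87 points in PM (adjusted p = 0.502). Leaving out 1 of the 14 Sham and Sham-OVA libraries removed the Trdc call in Sham in 8 cases, and the difference over all 14 cases was -3.73 to -2.51 points. In PM Trdc passed the test with the replicate number as a block (adjusted p = 0.0497), on the percent scale (adjusted p = 0.0477) and with an offset of 5 points (adjusted p = 0.0479). It also passed it without 1 library in 4 cases, namely without PM-OVA replicate 3, 7 or 8 or without PM replicate 4, with a smallest adjusted p of 0.0282, and with centred libraries it did not (adjusted p = 0.181).

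**Figure D3:**
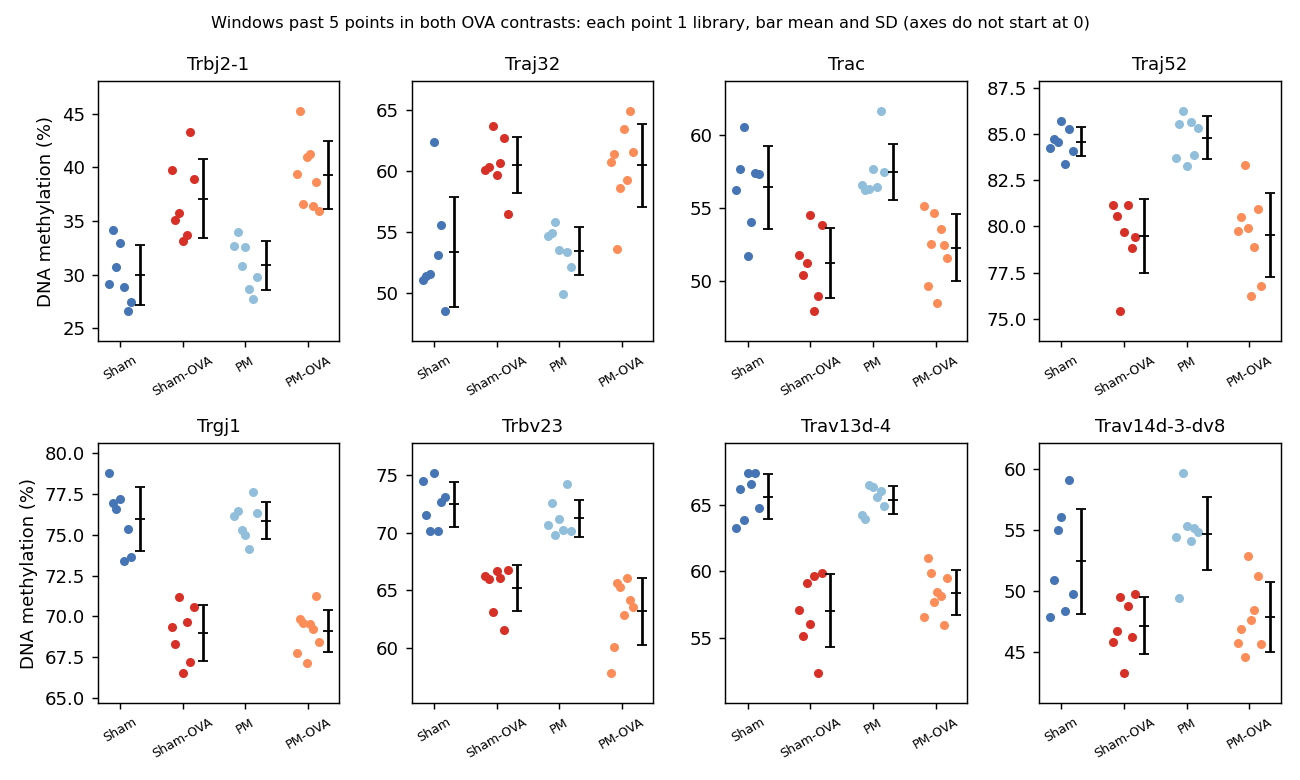
The 8 windows past 5 points in both OVA comparisons are shown, with %DNAm on the vertical axes (which do not start at 0) and the 4 groups on the horizontal axes. Each point is 1 library and the bars give mean and SD. In Trbj2-1 and Traj32 the OVA groups lie higher, and in Trac, Traj52, Trgj1, Trbv23, Trav13d-4 and Trav14d-3-dv8 they lie lower.

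Of the 82 tested Tra V windows, 9 fell and 1 rose in Sham, and 18 fell and 1 rose in PM. The falls are 11% and 22% of these windows, below the 22.3% and 34.8% of all windows. The single riser in both was Trav1, at the far end of the array, which went from 55.8% ± 2.02 to 58.6% ± 1.80 in Sham (n = 7 each; adjusted p = 0.0219, limma) and rose by 2.59 points in PM (adjusted p = 0.0238). Trav13d-4 had the largest fall of any tested member in Sham. Sham libraries ran from 63.2% (median 66.2%) to 67.4% and Sham-OVA from 52.3% (median 57.1%) to 59.9%, and PM from 63.9% (median 65.6%) to 66.5% and PM-OVA from 55.9% (median 58.3%) to 61.0%. Neither pair overlapped. The difference was -8.56 points in Sham (log2 ratio -0.51 ± 0.06, adjusted p = 3.77e-07) and -6.96 in PM (-0.42 ± 0.06, adjusted p = 2.74e-06). The next window, Trav14d-3-dv8, with 34.7% repeated words, changed by -5.25 points (adjusted p = 0.0136) and -6.81 points (adjusted p = 0.00105). It and Trac were singled out after their values were seen.

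The names with d or n mark near-identical copies of a duplicated stretch of the mouse alpha V array, and reads from such copies can be hard to place. In 14 tested windows at least 80% of the 100-base words occur again elsewhere on the chromosomes searched. These windows held 75 to 256 CpG sites over 11786 to 37945 bases, where the 16 Traj windows each held 49 or 50. The SD between libraries of a group, averaged over the groups, had a median of 5.85 points in these windows (range 2.53 to 9.94) against 1.67 in the 74 windows under 10%. Across 130 windows it correlated with the repeated share (r = 0.79, rho 0.64), as a description of windows that share libraries. In these 14 windows 0 passed the test in Sham and 1 in PM, where 35.6% and 44.1% of all windows passed it in either direction. That was Trav7d-5, with 94.2% repeated words, which had the largest fall in PM, with a difference of -8.32 points (43.8% ± 7.43, n = 7, to 35.5% ± 5.41, n = 8; adjusted p = 0.0431, limma). Its libraries overlapped widely, from 30.7% to 52.0% in PM and from 28.5% to 44.0% in PM-OVA. Without 1 of 9 single libraries the call was lost, and without PM replicate 2 the difference reached -10.5 points, so that it became the 1 window called at 10 points. Trav9d-4, the V window with the largest positive difference in PM, differed by 5.37 points without passing the test (adjusted p = 0.233). The animals are Balb/c and the reference is C57BL/6, and copy differences between the strains were not tested.

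**Figure D4:**
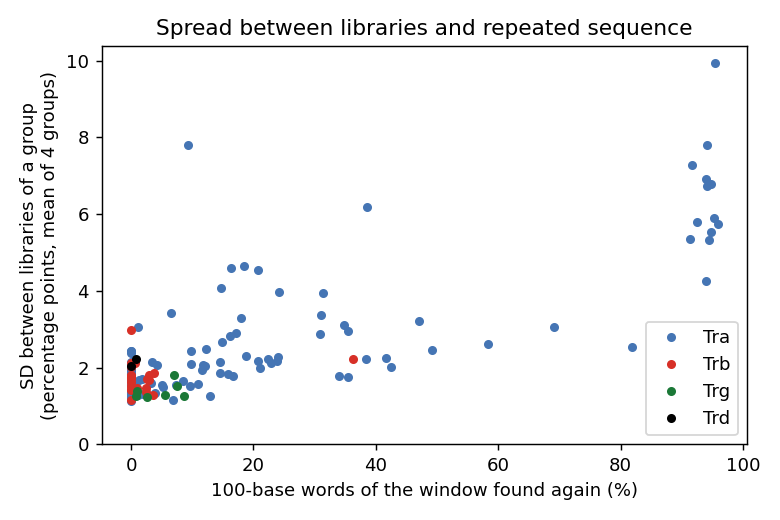
The vertical axis is the SD between libraries of a group in percentage points, averaged over the 4 groups, for each of 130 windows. The horizontal axis is the percent of the window's 100-base words that occur again on chromosomes 6, 8, 13 and 14. The 14 windows at 80% or more have a median SD of 5.85 points, against 1.67 in the 74 windows under 10%.

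Without challenge the loci differed in level. In Sham the library means over all T cell receptor windows were 62.2% to 64.0% (median 62.8%), and over all tested windows 68.6% to 69.6%. Tra V windows were low, at 57.0% to 59.0%, and Tra J windows lay at 70.7% to 72.4%. Trb V windows lay at 72.4% to 74.9%, and Trg windows were highest at 76.9% to 78.8%. Library ranges of Tra V, Tra J and Trg did not overlap each other, and those of Tra J and Trb V did not either in Sham, whereas in PM they did (70.6% to 72.1% and 71.9% to 75.0%). Single windows ran from Trav15-3 at 40.0% ± 4.85 (n = 7) to Traj52 within Tra, from Trbj2-1 to the first Trbv21 window within Trb, and from Trgv2 at 75.5% ± 1.36 (n = 7) to Trgc4 within Trg. In Tra V the median window level was 59.4% where under 10% of the sequence was repeated (27 windows), 56.9% at 10 to 80% (41 windows) and 57.3% above (14 windows), so the low level was present also in mostly unique sequence. CpG density and Sham level were nearly unrelated across the 130 windows (r = 0.10, rho -0.03). Repeated share and Sham level had r = -0.33 (rho -0.46).

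**Figure D5:**
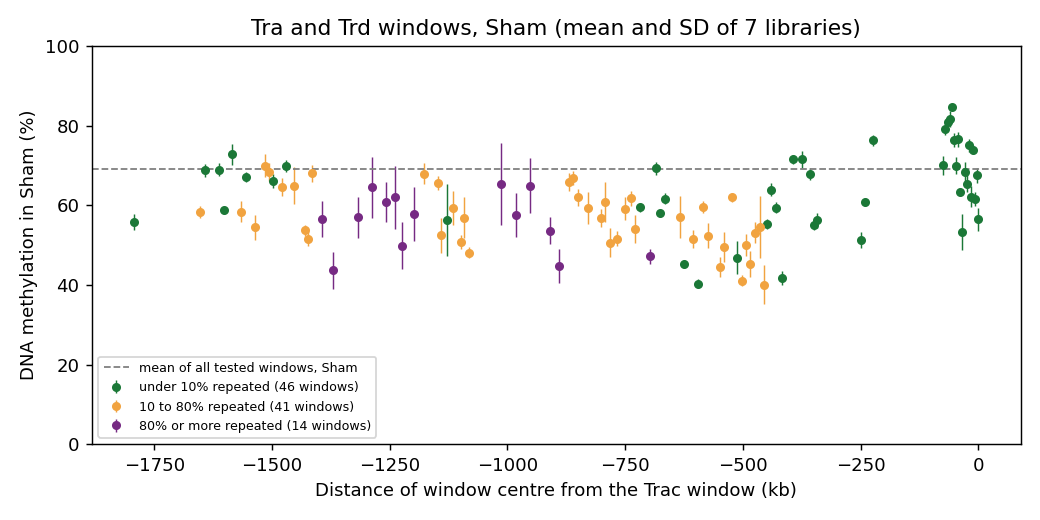
The vertical axis is %DNAm in Sham (mean and SD of 7 libraries) for each tested Tra and Trd window, and the horizontal axis is its distance from the Trac window in kb. Colours give the share of repeated sequence and the dashed line is the mean of all tested windows. Most V windows lie below the line, from 40.0% upwards, and the J windows near the right end reach 84.6%.

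Relative to the mean of all tested windows of the same library, the T cell receptor mean was lower after OVA in both kinds of offspring. It lay between -6.48 and -5.57 points in Sham and between -7.61 and -6.73 in Sham-OVA, and between -6.56 and -6.26 in PM and between -7.59 and -6.82 in PM-OVA. The groups did not overlap in either case. No test was made of this mean over chosen members. The mean over olfactory and vomeronasal windows was also lower without overlap, at 2.63 to 3.09 points in Sham and 1.55 to 2.40 in Sham-OVA, and at 2.17 to 3.12 in PM and 1.43 to 2.10 in PM-OVA. In the 74 mostly unique windows it lay between -2.0 and -1.62 in Sham and between -3.08 and -2.09 in Sham-OVA, and between -2.40 and -1.64 in PM and between -3.07 and -2.34 in PM-OVA, where the Sham ranges did not overlap and the PM ranges did. Sham replicate 1 lay within its group at -6.32. Without it 31 windows passed the adjusted p in Sham, with a median difference of -1.11 points.

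A further 24 windows held T cell receptor segments in the GENCODE annotation but carry the name of another gene in the table, so they are not among the members. They were listed after the member values had been seen. Of these, 10 fell and 0 rose in Sham, and 11 fell and 0 rose in PM, with a median difference of -2.41 and -3.07 points and 0 called at 10 points. The falls are 41.7% and 45.8%, beside 22.3% and 34.8% of all windows. The window of the gamma V segments Tcrg-V7 and Tcrg-V4 went from 66.5% to 57.5% in Sham (adjusted p = 1.11e-06) and from 66.7% to 58.4% in PM (adjusted p = 1.59e-06). Another window of Tcrg-V7 differed by 0.59 and -0.76 points and did not pass the test (adjusted p = 0.606 and 0.453, limma). The window of Trbv1 changed by -7.70 and -7.13 points (adjusted p = 2.90e-06 and 3.28e-06). Among the delta V windows, both of Trdv2-1 and the first of Trdv4 passed the test in neither comparison. Trdv2-2 fell in PM only, and the second Trdv4 window fell in both. The delta D, J and C windows of this list all fell in both comparisons. Trdd1 changed by -3.61 and -4.90 points (adjusted p = 0.000174 and 1.41e-06), and Trdd2 with Trdj1 by -4.23 and -5.71 points (adjusted p = 0.00437 and 0.000110). Trdj2 changed by -6.84 and -6.22 points (adjusted p = 0.0175 and 0.0182), and the upstream Trdc window by -4.84 and -5.26 points (adjusted p = 8.13e-05 and 1.31e-05).

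Maternal PM2.5 exposure gave 0 called T cell receptor windows, without OVA, with OVA or as an interaction with OVA, and 0% of all tested windows were called in each of the 3 comparisons by limma. An unadjusted p under 0.05 was found in 8, 10 and 11 of the 130 windows, respectively, where 5.79%, 5.96% and 7.40% of all windows had one. The smallest p without OVA was that of Traj9, at 74.0% ± 1.11 in Sham and 76.2% ± 0.804 in PM (n = 7 each; adjusted p = 0.812, limma). With OVA it was that of Trbv30, at 81.7% ± 1.91 (n = 7) in Sham-OVA and 78.9% ± 1.09 (n = 8) in PM-OVA (adjusted p = 0.796, limma). For the interaction it was Trbv16, which differed by 0.81 points after OVA in Sham and fell by 3.55 in PM, a difference between them of -4.36 points (adjusted p = 0.551). Hence no window was shown to respond to OVA differently in PM and Sham offspring.

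Other genes of the pathway had windows that passed 10 points. Genes of the receptor complex and its proximal signalling (18 genes, 200 windows) had 5 windows called lower and 0 higher in Sham, and 4 lower and 1 higher in PM. The called windows are 2.5% of the list in each, beside 0.775% and 0.584% of all windows. Past the adjusted p at any size, 57 fell and 47 rose in Sham and 70 fell and 38 rose in PM. The falls are 28.5% and 35% of the list, beside 22.3% and 34.8% of all windows, and the rises 23.5% and 19%, beside 13.3% and 9.26%. The medians of -0.33 and -0.58 points lay above those of all windows, -0.41 and -1.03. A Ptprc window, in the gene of the phosphatase CD45 that activates Lck, went from 69.3% to 50.2% in Sham and from 68.1% to 51.6% in PM (adjusted p = 1.52e-10 and 5.02e-10). A window of Lat, the adaptor phosphorylated below the receptor, went from 66.0% to 51.5% and from 67.1% to 53.4% (adjusted p = 9.59e-08 and 6.86e-08). A window of Grap2, an adaptor that binds SLP-76, was the one called higher in PM, from 56.9% to 68.2% (adjusted p = 1.33e-05), while another Grap2 window fell from 63.2% to 53.7% in Sham and from 63.4% to 54.2% in PM (adjusted p = 2.19e-06 and 1.34e-06). Genes of V(D)J recombination (10 genes, 165 windows) had 1 window called in each (0.606%), near the share of all windows. In Sham 19 fell and 21 rose and in PM 35 fell and 13 rose, with medians of -0.07 and -0.47 points. The falls are 11.5% and 21.2% of the list and the rises 12.7% and 7.88%. These were not tested against the other windows, of which 22.3% and 34.8% fell and 13.3% and 9.26% rose. The called window, in Hmgb1, a cofactor of the RAG proteins, went from 71.4% to 59.8% and from 71.6% to 60.2% (adjusted p = 5.96e-07 and 3.11e-07), and another Hmgb1 window rose by 6.85 and 8.66 points (adjusted p = 0.00116 and 4.31e-05). A window of Dntt, the polymerase that adds bases at the joints, changed by -9.88 and -7.49 points (adjusted p = 1.10e-07 and 2.18e-06).

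Markers of several cell types moved with OVA. The mean over 17 windows of 6 eosinophil genes lay between 67.3% and 69.4% in Sham and between 64.3% and 66.5% in Sham-OVA, and between 68.3% and 70.4% in PM and between 64.4% and 65.7% in PM-OVA. Its median difference was -4.23 and -4.34 points, with 9 and 11 windows falling and 0 rising (52.9% and 64.7% falling, beside 22.3% and 34.8% of all windows). At 10 points 2 of them were called lower in Sham and 0 in PM (11.8% and 0%, beside 0.775% and 0.584% of all windows). T cell marker genes (15 genes, 149 windows) had a median of -0.60 and -1.42 points, beside -0.41 and -1.03 over all windows. Of these 41 fell and 26 rose in Sham and 58 fell and 13 rose in PM (27.5% and 38.9% falling, beside 22.3% and 34.8% of all windows), with 1 window called lower in each (0.671%), near the share of all windows. B cell, macrophage, epithelial and endothelial lists had medians of 0.16, -1.10, 1.45 and 2.09 points in Sham, and -0.10, -1.58, 0.26 and 0.86 in PM. Of the 81 endothelial windows 40.7% and 35.8% rose, beside 13.3% and 9.26% of all windows. Another 14.8% and 22.2% of them fell, beside 22.3% and 34.8%. Of the macrophage windows 33.9% and 43.5% fell and 11.3% and 8.06% rose. Of the epithelial windows 8.33% and 12.5% fell and 31.2% and 18.8% rose. Of the B cell windows 24.3% and 29.6% fell and 22.4% and 15.8% rose. These are methylation values and give no expression of the markers, and their part in the T cell receptor differences was not tested.

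Immunoglobulin segments, the other recombining receptor genes, had medians nearer 0. Their 275 windows had a median of -0.07 points in Sham and -0.68 in PM, with 12 falling and 16 rising in Sham and 28 falling and 4 rising in PM, and 0 and 1 called. Olfactory and vomeronasal receptor genes, which also form arrays, had medians of -1.28 and -2.09 points over 2566 tested windows, with 539 falling and 26 rising in Sham, 1301 falling and 7 rising in PM, and 0 called. The falls are 21% and 50.7% of the olfactory windows and 4.36% and 10.2% of the immunoglobulin windows, beside 22.3% and 34.8% of all windows. The rises are 1.01% and 0.273% of the olfactory windows and 5.82% and 1.45% of the immunoglobulin windows, beside 13.3% and 9.26%. The immunoglobulin calls are 0% and 0.364%, beside 0.775% and 0.584% of all windows. No test was made between these lists. Of the 4 Tradd windows, the first rose from 59.6% ± 2.70 to 68.7% ± 2.18 in Sham (n = 7 each; adjusted p = 0.000330, limma) and by 6.91 points in PM (adjusted p = 0.00221), and the other 3 did not pass the test.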

How the data were processed

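The authors enzymatically converted lung DNA spiked with unmethylated lambda DNA, removed adapters with Trim Galore, mapped the reads to GRCm38 and made methylation calls with DRAGEN, and averaged the calls in SeqMonk over windows with a set number of CpG sites and a minimum of informative ones. The deposited values are a percent methylation per window and library, with no counts, coverage or normalisation between libraries. Hence the depth behind each value is unknown, and no counting error can be given. P-values set each difference against the spread between libraries within groups, pooled over the 4 groups and moderated across windows. They take no account of litters, which are not labelled.

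Windows with at least 3 values in every group (259167) were tested with limma 3.58.1 (R 4.3.3) on the log2 ratio of (percent methylated + 1) to (percent unmethylated + 1), with the 4 groups fitted to all 29 libraries, 2-sided tests, and p-values adjusted by Benjamini-Hochberg across these windows. Calls required an adjusted p under 0.05 and 10 points. "Fell" and "rose" mean an adjusted p under 0.05, and differences are in percentage points. No count model was used because the values are percentages. The code was tested on simulated data with known changes. Annotation is GENCODE M21 and sequence GRCm38, both of the authors' build. Repeated sequence is the percent of a window's 100-base words found again on chromosomes 6, 8, 13 and 14. Tables were made with Python 3.11.15, pandas and matplotlib.

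The members and lists were chosen with earlier results of these data known. Named windows were those with the largest rise and fall per locus and OVA comparison, the 10 J, D and C windows with the smallest p, the lowest and highest per locus in Sham, and the smallest p in each maternal comparison. Alternatives were other thresholds, scales, offsets and window sets, centred libraries, a replicate block, and each library left out.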

Additional observations from a re-analysis of the deposited data

Results flagged for a closer look

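In 5 of 108 groups of libraries (named windows and locus means), 1 library lay apart from the others by Dixon's criterion, and chance flags about 1 in 20 groups. Trbv30 had 83.4% in Sham replicate 2, where the next highest Sham library had 80.8%. Trgv2 had 73.0% in PM replicate 3, with the next lowest at 74.9%. Traj52 had 75.4% in Sham-OVA replicate 3, with the next lowest at 78.8%. Traj46 had 59.8% in Sham-OVA replicate 5, with the next lowest at 65.0%. Traj9 had 74.5% in PM replicate 4, with the next lowest at 76.2%. Without any 1 of the libraries compared, the falls at Traj52, Traj46 and Traj9 passed the test in both OVA comparisons, whereas centring the libraries ended that of Traj46 in PM (adjusted p = 0.0689).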

How the results depend on the processing

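The count of T cell receptor windows called at 10 points was 0 in the 5 comparisons under the percent scale, the 5-point offset, an adjusted p of 1e-06, centring, windows with a value in all libraries, and the 2 restricted window sets. It was 9 for OVA in Sham and 12 for OVA in PM with a minimum of 5 points. Leaving out 1 library gave 0 in Sham and 0 to 1 in PM. The count past the adjusted p at any size went from 34 and 45 to 2 and 2 at the 1e-06 threshold, was 26 in PM with centred libraries (32 in Sham), and lay between 29 and 36 in Sham and 39 and 46 in PM without 1 library. The median difference was -0.74 in Sham and -0.44 in PM with centred libraries, which removes the general fall after OVA by construction, and lay between -1.25 and -0.74 in Sham and between -1.73 and -1.29 in PM without 1 library. Whether the replicate numbers of the titles pair the samples is not stated in the labels. Deviations of the 42 same-numbered pairs correlated at -0.07 to 0.13, and those of 273 differently numbered pairs at -0.13 to 0.13. For 9 of the 29 libraries the best match in another group had the same number. These values neither show nor exclude pairing. With the replicate number as a block, 0 windows were called and 36 and 42 passed the adjusted p. For named windows, centring ended the calls of Traj46 and Trav7d-5 in PM, and the block, the percent scale and the 5-point offset gave one at Trdc in PM. Leaving out 1 library moved the difference of Trgv1 in Sham, which had passed no test, as far as 0.57 and turned it to -0.33, -0.11, -0.08, -0.29, -0.05 and -0.02 points, and ended the calls of Trav7d-5 in PM in 9 cases and of Trdc in Sham in 8, while it gave a call at Trdc in PM in 4. Unknown depth, repeated copies and mixed cells limit what these values can show.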
